A study of Populus tremula x Populus alba with 14 samples.

Results

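Inner bark of old stems was compared with inner bark of young stems in hybrid poplar, using the 7 RNA sequencing libraries labelled as inner bark out of 14 libraries in the series. The choice used only the labels of bark layer and stem age, and no measured value. The old group held 4 libraries from stems of 6 to 8 mm in diameter, and the young group held 3 libraries from stems of 4 to 5.5 mm. Both groups were wild type trees of a single clone, INRA 717-1B4 of Populus tremula x Populus alba, raised in a greenhouse and kept outdoors in the growing season. Every tree thus shared a genotype, and age cannot be told apart from stem diameter. The labels give neither an age in years nor a sampling date, and leave unsaid whether each number stands for a separate tree. The p-values therefore measure the spread between these libraries. The other 7 libraries held outer bark (phellem with phellogen) of stems with the same numbers, and serve below only to show where inner bark differed.

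Inner bark is the living part of bark between the cork layers and the wood. Its secondary phloem carries sugars and other assimilates along the stem, through sieve elements that are kept alive by companion cells, with parenchyma and fibres around them. The vascular cambium, the meristem labelled here as vascular meristem, adds phloem to its outside and xylem to its inside, so that a stem thickens as it ages. The count table pairs no identifier with a gene name, so genes are described by identifier and by behaviour, and marker genes of phloem, cambium, xylem, cork or green cortex were not analysed here. In bulk tissue, fewer cells of a type and less RNA per cell cannot be told apart.

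Total counts lay between 11944485 and 13209115 in old and between 13286574 and 15311271 in young inner bark, so that each old library was shallower than each young library. Genes with at least 1 count numbered 30278 to 31482 in old and 31669 to 32460 in young libraries. CPM are counts scaled to a fixed total, with library sizes adjusted by TMM factors. Among the 25929 genes kept for testing, those at 1 CPM or more numbered 22663 to 24088 in old and 24084 to 24431 in young libraries. The 100 most abundant genes of a library took 11% to 14.4% of counts in old and 9.38% to 10.1% in young inner bark. No pair of libraries of an age agreed within counting noise, with a chi-square of at least 21.9 per degree of freedom. The part of depth in the results was not tested.

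The first principal component of the 7 libraries, which held 60.6% of the variance, placed old and young libraries on opposite sides. Old replicate 1 lay at -145.4, old replicate 2 at -93.61, old replicate 4 at -52.13 and old replicate 3 at -35.11. Young replicate 1 lay at 74.33, young replicate 4 at 125.1 and young replicate 2 at 126.8. The ages did not overlap, and young replicate 1 was the young library nearest to the old ones. The second component held 18.6% and set old replicate 1 (100.5) apart from the other old libraries, which lay between -52.62 and -38.02. Young replicate 1 lay at -47.88 on it, beside those old libraries, while young replicates 2 and 4 lay at 44.81 and 36.68.

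**Figure D1:**
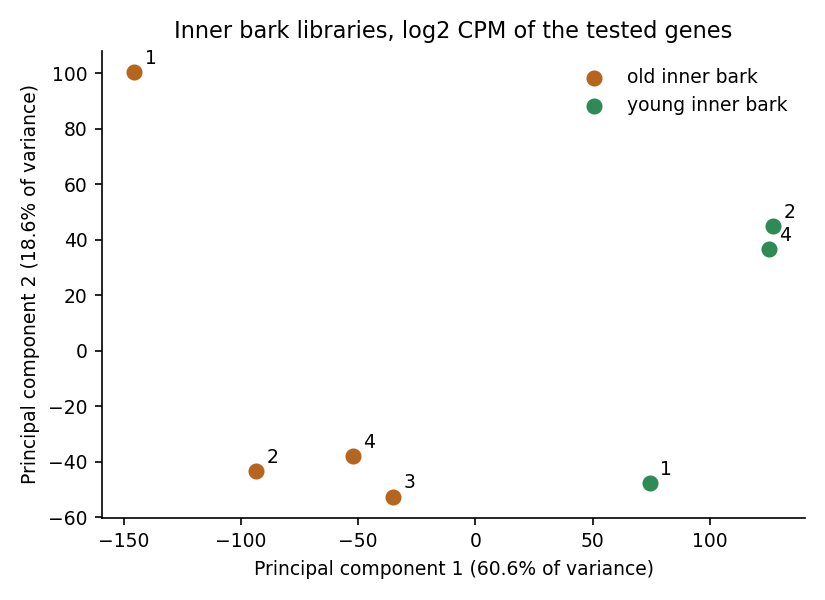
Principal components 1 and 2 of log2 CPM over the 25929 tested genes, in arbitrary units, with 1 point per inner bark library, labelled by its replicate number. Old libraries lie between -145.4 and -35.11 and young libraries between 74.33 and 126.8 on component 1, and old replicate 1 stands apart at 100.5 on component 2.

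Distances between libraries gave the same picture in expression units. The median absolute log2 difference between libraries was 0.273 to 0.589 in the 6 pairs of old libraries and 0.245 to 0.390 in the 3 pairs of young libraries. It was 0.465 to 0.836 in the 12 pairs of an old with a young library. Old replicate 1 differed from the other old libraries by 0.564 to 0.589, which was more than old replicates 3 and 4 differed from young replicate 1 (0.465 and 0.474). Old replicates 2, 3 and 4 differed among themselves by 0.273 to 0.326. Spread thus depended on single libraries in each group: the biological coefficient of variation was 0.414 in old inner bark and 0.280 without its replicate 1, and 0.368 in young inner bark and 0.230 without its replicate 1.

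Transcript levels of many inner bark genes differed between old and young stems in both directions, and genes higher in young stems had the larger median difference. Of 25929 genes tested, 5505 (21.2%) passed edgeR's quasi-likelihood test at an adjusted p below 0.05. Of these, 2339 genes (9.02% of those tested) were higher in old and 3166 (12.2%) were higher in young inner bark. The genes higher in old stems differed by a median of 2.23-fold (quartiles 1.80 and 3.27). For the genes higher in young stems the median difference was 4.15-fold (quartiles 2.62 and 7.32). Before adjustment, 10020 genes had a p below 0.05. The median log2 fold change over all tested genes was 0.06, and 53.2% of these genes had a positive one.

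The number of calls rested on single libraries. It was 861 without young replicate 4, 1539 without young replicate 2, 2250 without old replicate 2 and 3400 without old replicate 4, and it rose to 10421 without replicate 1 of both ages. The genes higher in old stems numbered 3649 without old replicate 1 and 1437 without old replicate 3. More of the called genes were higher in young than in old stems in each of these fits. Of the 861 genes called without young replicate 4, 852 were among the 5505, all of them in the same direction. Both fits used the remaining libraries, which favours this agreement. The title of young replicate 4 begins with the number 9 and that of its outer bark partner with 20, while the other 6 pairs of titles have consecutive numbers. Inner bark titles begin with 1, 3, 5 and 7 in old and with 15, 17 and 9 in young stems. The order of these numbers thus cannot be told apart from age.

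Small changes made up much of the set higher in old stems and little of the set higher in young stems. Among genes higher in old stems, 884 (37.8%) changed by under 2-fold, 1063 (45.4%) by 2 to 4-fold, 346 (14.8%) by 4 to 16-fold and 46 (1.97%) by more. Among genes higher in young stems, 387 (12.2%) changed by under 2-fold, 1137 (35.9%) by 2 to 4-fold, 1437 (45.4%) by 4 to 16-fold and 205 (6.48%) by more. A mean level under 1 CPM at the lower age was found for 218 of the genes higher in old stems (9.32%) and 705 of the genes higher in young stems (22.3%). The fold changes of such genes are imprecise, because few reads lie behind the lower level. How many of all tested genes had a mean under 1 CPM at either age was not examined. The contrast between 9.32% and 22.3% thus cannot be called particular to the called genes.

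**Figure D2:**
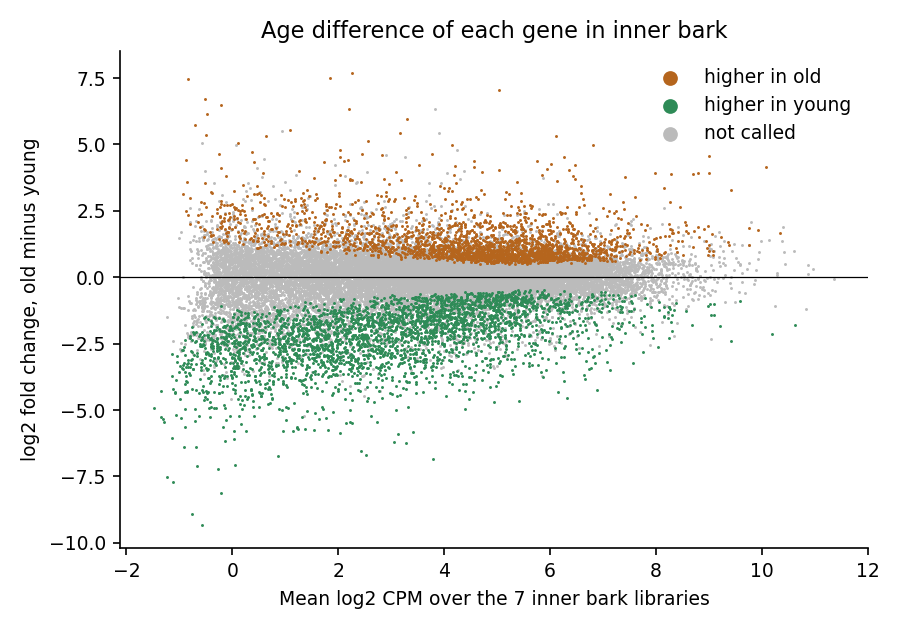
Log2 fold change (old minus young) of each of 25929 genes in inner bark against its mean log2 CPM over the 7 libraries, with 1 point per gene. Genes called higher in old (2339) lie closer to the zero line than genes called higher in young (3166), whose median change was 4.15-fold against 2.23-fold.

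The directions also differed with abundance. Among 8808 genes with a mean level of 1 to 10 CPM over the 7 libraries, 5.14% were called higher in old and 15.1% higher in young stems. Among 13879 genes at 10 to 100 CPM the shares were 11.1% and 10.8%, and among 2124 genes at 100 CPM or more they were 13.9% and 8.71%. Low genes that were called were thus mostly higher in young stems, and the most abundant called genes were more often higher in old stems. The median log2 fold change of all tested genes, called or not, also rose with abundance. It was -0.08 at 1 to 10 CPM, 0.12 at 10 to 100 CPM and 0.14 at 100 CPM or more. The mean level was taken over the libraries compared, more of them old than young, which can place genes higher in old stems at higher levels. The part of this in the pattern was not tested. Among genes called at 10 to 100 CPM, the median change was 2.02-fold for those higher in old and 3.24-fold for those higher in young stems, so the larger changes toward young stems were not limited to low genes. At 100 CPM or more these medians were 2.31-fold and 3.23-fold.

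The lists of the most abundant transcripts differed in part between the ages. Of the 100 genes with the highest mean CPM in old inner bark and the 100 with the highest in young inner bark, 42 were in both lists. How far such lists differ between libraries of the same age was not tested. Of the 58 in the old list alone, 34 were called higher in old stems, against 13.9% of all genes at 100 CPM or more. Of the 58 in the young list alone, 27 were called higher in young stems, against 8.71% of all genes at 100 CPM or more. The lists were picked on the means of the same libraries, which favours such calls. All genes called higher in old stems together took 16.5% to 19.1% of the counts in old and 6.44% to 8.48% in young libraries. All genes called higher in young stems took 3.59% to 5.91% in old and 14% to 17.3% in young libraries. These sets were chosen on the same libraries, so these shares describe how much of the RNA pool they held and are not a test.

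Most called genes separated the ages without overlap. The calls were made on these same values, which favours separation, so these counts are a description and not a test. The lowest old value was above the highest young value in 2326 of the 2339 genes higher in old stems, and over all tested genes 19.7% were separated this way. The highest old value was below the lowest young value in 3023 of the 3166 genes higher in young stems, and over all tested genes 18.9% were separated this way. A further 2781 genes separated upward in old stems and 1884 separated upward in young stems were not called.

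Potri.010G002600 had the largest change toward old stems among the genes that met the naming rule, which asked for a call, an average log2 CPM of 3 or more and ages that did not overlap. It was at 1325, 155.9, 133.0 and 49.91 CPM in old replicates 1 to 4, against 2.74, 4.33 and 2.25 CPM in young replicates 1, 2 and 4. Each old library was above each young library, and old replicate 1 was far above the other old libraries. Its log2 fold change was 7.06 ± 1.42 (SE; edgeR adjusted p = 0.0171). Without old replicate 1 the log2 fold change was 5.18 (edgeR adjusted p = 0.00914). The call was lost without young replicate 2 (edgeR adjusted p = 0.0649) or young replicate 4 (edgeR adjusted p = 0.0774), with adjusted p from 7.45e-11 to 0.0774 over 17 alternatives.

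Potri.006G238600 was at 143.9, 85.02, 73.79 and 31.71 CPM in old replicates 1 to 4, against 3.47, 0 and 0.450 CPM in young replicates 1, 2 and 4. The young values rested on 57, 0 and 6 reads, so that young replicate 1 held nearly all of the young signal. The log2 fold change was 5.94 ± 1.19 (SE; edgeR adjusted p = 0.0168), and it was 8.46 without young replicate 1. The call was lost without young replicate 4 (edgeR adjusted p = 0.0735), with adjusted p from 6.92e-07 to 0.0735 over 17 alternatives. Old replicate 1 was the highest and old replicate 4 the lowest of the old libraries in both of these genes.

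Potri.014G122200 had the largest change toward young stems among the genes that met the naming rule. It was at 0.0873, 0.229, 6.22 and 2.83 CPM in old replicates 1 to 4, against 97.44, 238.2 and 198.4 CPM in young replicates 1, 2 and 4. Old replicates 1 and 2 were close to absence, with 1 and 3 reads, while old replicates 3 and 4 had 85 and 35 reads. The log2 fold change was -6.23 ± 1.14 (SE; edgeR adjusted p = 0.0135), and it was -7.43 without old replicate 3. Without young replicate 4 the adjusted p was 0.0521, the highest of 17 alternatives, and the lowest was 2.6e-07.

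Potri.012G126100 was at 3.06, 1.45, 2.27 and 1.13 CPM in old replicates 1 to 4, against 3.65, 259.7 and 179.4 CPM in young replicates 1, 2 and 4. The ages did not overlap, but young replicate 1 was at the level of the old libraries. The high young mean of 147.6 ± 130.9 CPM (SD, n = 3) was that of the other young libraries, against 1.98 ± 0.864 CPM in old stems (SD, n = 4). The log2 fold change was -6.22 ± 1.22 (SE; edgeR adjusted p = 0.0156), and -6.82 without young replicate 1. It was -5.53 without young replicate 2. The call was lost without young replicate 2 or 4 or old replicate 2 (edgeR adjusted p = 0.0519, 0.0578 and 0.0544) and in limma (adjusted p = 0.118). It was also lost in the fit of all 14 libraries with the stem as a random effect (limma adjusted p = 0.105), with adjusted p from 1.27e-08 to 0.174 over 17 alternatives.

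**Figure D3:**
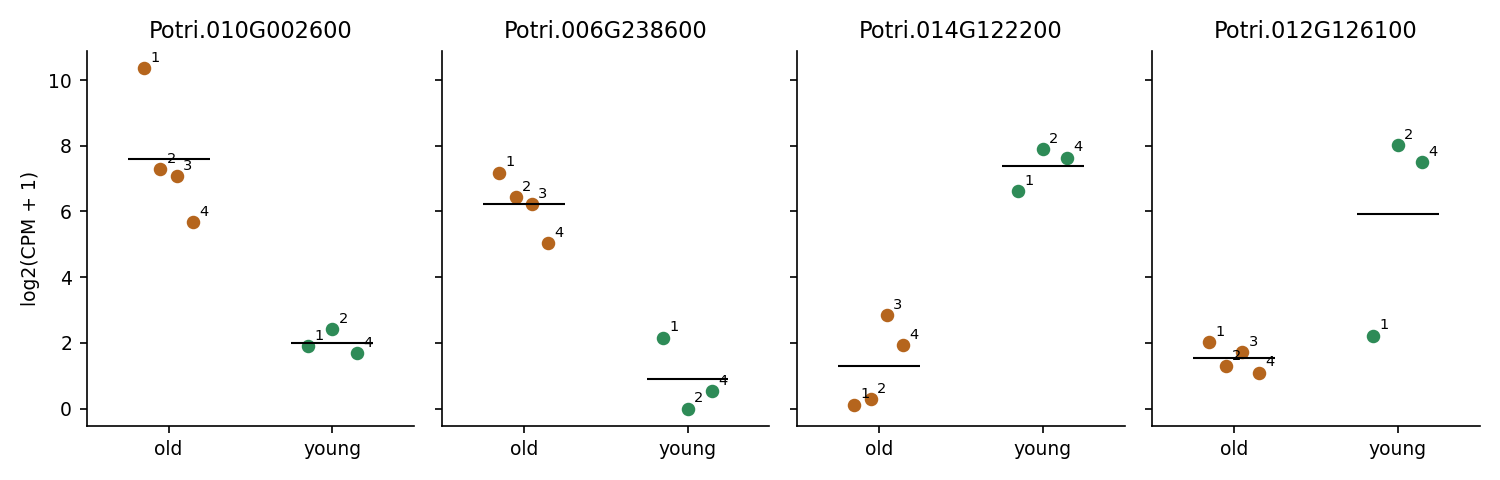
Levels of 4 genes in each inner bark library as log2(CPM + 1), with old libraries left of young libraries, points labelled by replicate number and bars at the mean. Old replicate 1 is the highest of all for Potri.010G002600, and young replicate 1 lies beside the old libraries for Potri.012G126100.

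Whether a single library behaved like its own age was read at genes called without it, so that its values did not take part in the choice. At the 2250 genes called without old replicate 2, this library lay nearer to the old than to the young mean in 97.7% of the genes higher in old and 97.8% of the genes higher in young stems. For old replicate 4 the shares were 88.3% and 88.9% at 3400 genes. For young replicate 4 they were 95.3% and 99.4% at 861 genes, and for young replicate 2 they were 90.6% and 93.6% at 1539 genes, each counted toward the young mean. Every library, including those described next, lay nearer to its own age at most of the genes that the other libraries had picked out. These 4 had a share of 88.3% or more in each direction.

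The remaining libraries had a share below 88.3% in at least 1 direction. The number of genes read differed from 861 to 8056 between left-out libraries, and with it the strictness of the choice, so these shares are not directly comparable. Young replicate 1 was nearer to the young mean in 58.7% of the genes higher in old and 65.6% of the genes higher in young stems, at 5932 genes. On a scale with the young mean at 0% and the old mean at 100%, each taken without the library in question, its median position was 43.4% for genes higher in old and 27.4% for genes higher in young stems. Old replicate 1 was nearer to the old mean in 75.8% and 75.5% of these sets at 8056 genes, with median positions of 93.4% and 116%. Its median thus lay near or past the other old libraries, while its values were widely scattered. Old replicate 3 was nearer to the old mean in 95.6% of the genes higher in old and 74.4% of the genes higher in young stems at 4229 genes, with a median position of 62.9% for the second set.

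**Figure D4:**
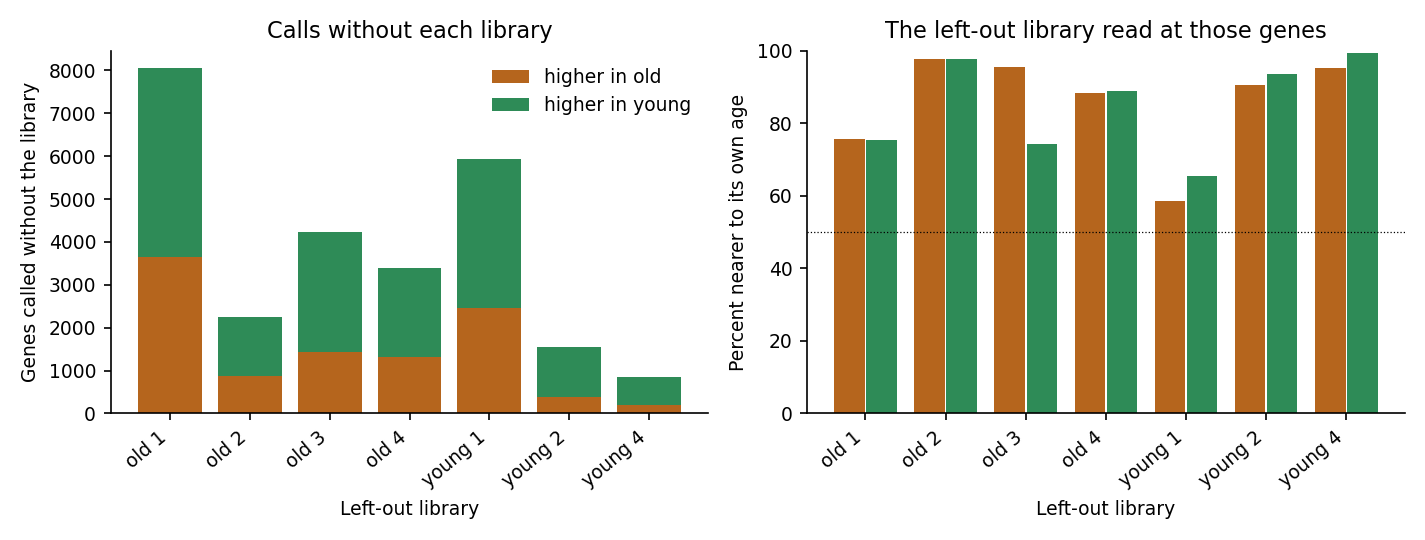
Left, number of genes called when 1 library was left out, split by direction; right, percent of those genes at which the left-out library lay nearer to the mean of its own age, with a dotted line at 50%. Young replicate 1 has the lowest bars on the right (58.7% and 65.6%), and calls are fewest without young replicate 4 (861).

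Within the full set of called genes, the extremes were shared unevenly among the libraries of an age. Among genes higher in old stems, old replicate 1 was the highest old library in 41.9% and old replicate 2 in 39.9%, old replicate 4 in 13.6% and old replicate 3 in 4.62%. In young stems these genes were highest in replicate 1 in 67.4%. Among genes higher in young stems, replicate 1 was the lowest young library in 55.6% and replicate 2 the highest in 42.1%. In old stems these genes were highest in replicate 3 in 52.9% and lowest in replicate 1 in 54.9%. The same shares over all tested genes were not examined, so this unevenness cannot be called particular to the called genes.

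The called genes were spread over the whole gene numbering. Identifiers fall into the number blocks 001 to 019 and a block T. Within the numbered blocks 7.28% to 11.4% of tested genes were called higher in old and 10.2% to 14% higher in young stems. In block T the shares were 5.15% and 7.12% of 660 tested genes. A gene called higher in old stems was followed in the numbering by a gene called the same way in 15.8% of 1612 cases, while 9.23% of all following genes were so called. For genes higher in young stems these shares were 17.4% of 2132 cases and 12.3%. The longest run of consecutive identifiers called in the same direction was 5 in each direction. The files give no positions and no sequences, and how the counting treated reads of near-identical neighbouring copies was not examined.

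Outer bark of the same numbered stems was set beside these changes. In a separate fit of the 7 outer libraries, 14.1% of 26740 genes were called, 1490 higher in old and 2289 higher in young stems. The inner and outer lists of genes higher in old stems shared 1117 genes, which was 47.8% of the inner list and 75% of the outer list. The lists of genes higher in young stems shared 1516 genes, 47.9% of the inner list and 66.2% of the outer list. The layers share stems, and these overlaps are a description. Absence from the outer list does not show that a gene was unchanged there. Among inner calls toward old stems, 2321 could be fitted in outer bark. There 1936 of them changed the same way at an unadjusted edgeR p below 0.05. For inner calls toward young stems this held in 2492 of 3040. No gene on an inner list was called the opposite way in outer bark. The share of all genes reaching this looser limit was not examined. The genes higher in old stems had a median log2 fold change of 1.15 in inner and 0.86 in outer bark, and the genes higher in young stems had -2.01 and -1.71. These genes were chosen in inner bark, which favours larger values there.

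The difference itself was tested as an interaction over all 14 libraries with the numbered stem as a block. Of 27673 genes, 2840 (10.3%) had an age difference in inner bark that departed from that in outer bark (edgeR adjusted p below 0.05). It was more positive in inner bark for 1934 genes (6.99%) and more negative for 906 (3.27%). The split depended on the scaling, with 1553 and 1334 genes under RLE factors. Without the block edgeR called 0 genes, with 1226 at an unadjusted p below 0.05. The blocked count was 781 without young stem 2, 897 without young stem 4 and 1283 without old stem 2. Among the more negative genes it was 573 without old stem 3 and 508 without old stem 4.

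Over all genes in the interaction test 10.3% passed, 6.99% with a more positive and 3.27% with a more negative age difference in inner bark. Among genes called higher in old inner bark, 396 (16.9%) passed the interaction test, and for 394 of them the age difference was larger in inner bark. Among genes called higher in young inner bark, 521 (16.5%) passed, 345 of them with the larger difference in inner and 176 with the larger difference in outer bark. The 393 genes of the first kind that could be fitted in outer bark had a median log2 fold change of 1.52 in inner and 0.73 in outer bark. The 343 such genes higher in young inner bark had medians of -2.59 and -1.11. For both sets the typical outer change had the direction of the inner change and was smaller, and the choice of these genes favours that order. Choosing genes by their inner bark change also favours a larger difference there in the splits above. How these splits shift under RLE factors was not tested.

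Potri.006G214300 and Potri.003G146800 had the largest interactions toward old inner bark among genes that met the naming rule and passed the interaction test, and were chosen for it after the values were seen. CPM values in these comparisons use scaling over all 14 libraries. Potri.006G214300 was at 14.23, 41.80, 23.13 and 19.03 CPM in old and 2.45, 1.83 and 5.10 CPM in young inner bark. In outer bark it was at 6.69, 16.52, 12.67 and 4.04 CPM in old and 3.19, 9.10 and 17.49 CPM in young stems, where the ages overlapped. The inner minus outer log2 difference of the age change was 2.87 ± 0.45 (SE; edgeR adjusted p = 0.00929), and the call was lost without young stem 4 (edgeR adjusted p = 0.0588).

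Potri.003G146800 was at 42.19, 110.8, 83.75 and 72.16 CPM in old and 31.61, 11.50 and 19.63 CPM in young inner bark. In outer bark it was at 8.43 to 20.49 CPM in the 4 old and 16.46 to 21.40 CPM in the 3 young libraries. Old inner bark thus stood above each other group, while young inner bark overlapped the outer bark values. Its inner minus outer log2 difference was 2.19 ± 0.36 (SE; edgeR adjusted p = 0.0104), and the call was lost without young stem 4 (edgeR adjusted p = 0.0547).

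Potri.001G339500 and Potri.001G301800, chosen in the same way, had the largest interactions toward young inner bark within the same limits. Potri.001G339500 was at 0.502, 0.767, 7.71 and 8.72 CPM in old and 42.96, 102.6 and 61.04 CPM in young inner bark. In outer bark it was at 2.93, 29.63, 64.63 and 47.05 CPM in old and 67.36, 108.2 and 65.51 CPM in young stems. Old replicate 1 was the lowest old library in both layers. Its inner minus outer log2 difference was -2.87 ± 0.45 (SE; edgeR adjusted p = 0.00939).

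Potri.001G301800 was at 1.09, 2.38, 5.90 and 1.68 CPM in old and 38.18, 54.90 and 49.06 CPM in young inner bark. In outer bark it was at 1.05, 11.34, 14.98 and 12.82 CPM in old and 24.24, 31.21 and 22.91 CPM in young stems, so the ages were separated in both layers. In inner bark its log2 fold change was -4.09 ± 0.53 (SE; edgeR adjusted p = 0.00865). In outer bark it was -1.34 ± 0.69 (SE; edgeR adjusted p = 0.213). The inner minus outer log2 difference was -2.70 ± 0.41 (SE; edgeR adjusted p = 0.00846), and without the block none of these 4 interactions passed (edgeR adjusted p from 0.834 to 1).

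**Figure D5:**
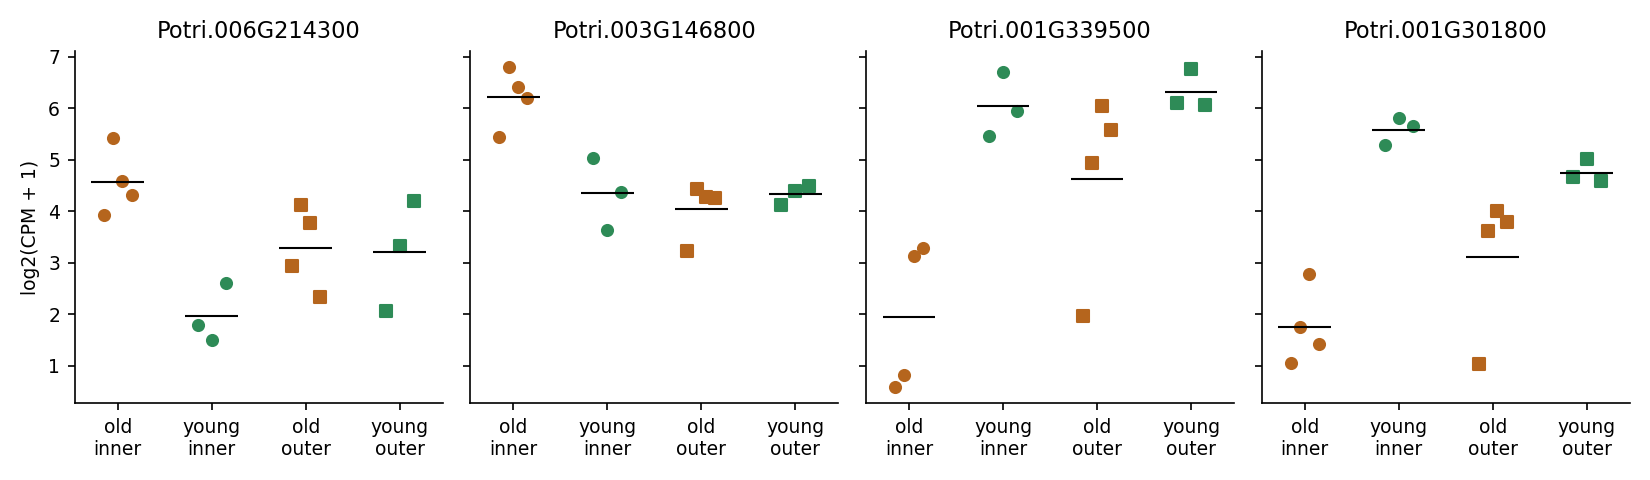
Levels of 4 genes as log2(CPM + 1) in inner bark (circles) and outer bark (squares) of old and young stems, with 1 point per library and bars at the mean. Old inner bark is the highest group for Potri.003G146800, and old inner libraries lie at 0.502 to 8.72 CPM for Potri.001G339500, below the young inner libraries.

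By contrast, the 4 genes with the largest inner bark changes under the naming rule did not pass the interaction test. Potri.010G002600 changed by a log2 fold change of 7.06 in inner and 6.32 in outer bark (edgeR adjusted p of the difference = 0.203). Potri.006G238600 changed by 5.94 and 5.81 (edgeR adjusted p of the difference = 0.859). Potri.014G122200 changed by -6.23 and -4.35 (edgeR adjusted p of the difference = 0.135), and Potri.012G126100 by -6.22 and -4.78 (edgeR adjusted p of the difference = 0.208). A difference between the layers was not detectable for them in these libraries, which does not show that the layers changed alike.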

How the data were processed

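The deposited values analysed are raw read counts of genes, whole numbers whose totals differ between libraries. HTSeq, edgeR, DESeq, Cufflinks, Bowtie, TopHat, Trimmomatic and CASAVA are named in the submitters' processing notes. Versions, roles and genome build are not given in the sources used here. Libraries were unstranded per the labels' protocols, so antisense reads cannot be told apart. The authors' tables of layer comparisons were not used.

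The 7 inner libraries were fitted alone (edgeR 4.0.16, R 4.3.3), because the layers of a stem are not independent. Of 41335 genes, 15406 were removed by filterByExpr. TMM scaling, robust quasi-likelihood F tests and 5 residual degrees of freedom were used, with Benjamini-Hochberg adjustment over the genes tested at 0.05. Errors of log2 fold changes are the change divided by the square root of F. Scripts were tested on simulated data.

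The interaction fit used stem number within age as a block: deviations from group means correlated between inner and outer bark at 0.596 to 0.817 in the old and 0.739 to 0.823 in the young stems, and each inner library correlated best with its own number. The naming rule took the 2 largest changes per direction among called genes that averaged 3 or more in log2 CPM and did not overlap between ages. The 31 gene lists defined by product names could not be filled, so they have no results. Members, lists and tests were chosen with earlier results of these data known. Alternatives were other scalings, filters, tools (DESeq2 1.42.0, limma 3.58.1), sets of libraries and leaving out libraries.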

Additional observations from a re-analysis of the deposited data

Results flagged for a closer look

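In 15 sets of 4 old inner bark values (measures of the libraries, and levels of the genes named), 3 held a value far from the other 3. Chance gives about 1 in 20 for values not chosen by size, a rate that does not apply to genes named for their large changes. Nor does it apply to principal components, which are fitted to the spread of these same libraries. The sets are also not independent, so 3 of 15 was not tested against that rate. Old replicate 4 had a total count of 11944485, the lowest of the old libraries. Old replicate 1 lay at 100.5 on principal component 2, and Potri.010G002600 reached 1325 CPM in it. Of genes tested for a different age change in inner and outer bark, 2840 passed with the stem as a block. Those named for a large difference (inner minus outer, log2) were Potri.006G214300 (2.87), Potri.003G146800 (2.19), Potri.001G339500 (-2.87) and Potri.001G301800 (-2.70).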

How the results depend on the processing

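The counts of genes called between old and young inner bark stayed within 1.5 times of 5505 under RLE and upper-quartile scaling, limma, other count filters, and both fits of all 14 libraries. Fits of all 14 libraries with group means gave 3916 genes higher in old stems. DESeq2 called 8758 genes, 3978 toward old and 4780 toward young stems, and they held 5494 of the 5505 in the same direction. Leaving out 1 library gave 861 to 8056 calls, with 190 to 3649 toward old and 671 to 4407 toward young stems. Without replicate 1 of both ages there were 10421, with 4856 toward old and 5565 toward young stems. With the replicate number as a block across ages, 1367 genes passed, 333 toward old and 1034 toward young stems, and the calls of Potri.010G002600 (edgeR adjusted p = 0.0602) and Potri.012G126100 (edgeR adjusted p = 0.174) were lost. Same-numbered libraries of the 2 ages deviated with correlations of -0.127, 0.0461 and 0.0088, so the numbers were not taken to pair the ages. For the interaction, leaving out a stem gave 781 to 2961 calls, 541 to 1748 more positive and 206 to 1320 more negative in inner bark, and without the replicate block there were 0 in either direction. The cause of these shifts was not tested. None of the 8 named genes reversed under any alternative run. The fold changes of genes that lay under 1 CPM at the lower age are imprecise, and the part of depth in them was not tested.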
